A study of Mus musculus with 10 samples.

Results

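Colons inflamed by transferred T cells were compared with non-inflamed colons for the enzymes that handle alcohols, aldehydes, esters, epoxides and other small reactive molecules. The 67 genes described here were picked by a rule on gene symbols, which uses no measured value, from the 18193 genes with a probe set annotated to a single gene. They are those whose symbol starts with Aldh, Akr or Ephx, and those that start with Adh, Ces, Fmo or Cbr followed directly by a digit. They comprised 20 aldehyde dehydrogenases (Aldh), 15 aldo-keto reductases (Akr), 13 carboxylesterases (Ces), 7 alcohol dehydrogenases (Adh), 4 carbonyl reductases (Cbr), 4 epoxide hydrolases (Ephx) and 4 flavin-containing monooxygenases (Fmo). No filter on low values was applied, so all 67 entered every test. Of these, Adh6-ps1 (a pseudogene), Akr1c20, Akr1d1, Aldh3a1 and Ces1c had means below 3.92, the highest lower quartile of the arrays.

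All 10 mice were Rag1-/- animals on the C57BL/6 strain, which cannot make T or B cells of their own. At 10 weeks of age the 4 control mice received regulatory T cells (Tregs) and the other 6 received naïve T cells, which cause colitis when no Tregs restrain them. Distal colon was taken 2 to 3 months later, at an age of 4 to 5 months, and the labels divide the 6 inflamed colons into 3 with severe and 3 with moderate inflammation, without saying how severity was scored. Total RNA of each colon was measured on 1 Affymetrix mouse array, and every value below is a log2 RMA value, so a difference of 1 is a 2-fold change. Differences are inflamed minus control and carry the limma standard error after the ± sign. The array medians lay between 5.36 and 5.40 and the lower quartiles between 3.82 and 3.92, so values near 4 are those of the dimmest probe sets.

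These families stand at the border between the gut wall and what passes through it. Alcohol dehydrogenases turn alcohols into aldehydes, aldehyde dehydrogenases turn aldehydes into acids, and reductases of the Akr and Cbr families turn aldehydes and ketones back into alcohols. The same chemistry makes retinoic acid, the hormone-like form of vitamin A that guides epithelial and immune cells in the intestine, from retinol by way of retinaldehyde. Carboxylesterases cleave esters of drugs and lipids, epoxide hydrolases open epoxides, and flavin-containing monooxygenases add oxygen to nitrogen and sulphur atoms. Much of this capacity is known from the liver and from the mature absorptive cells of the intestine.

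Most of the change in these families was downward. Against control, 28 of the 67 genes were lower in the inflamed colons, 10 were higher and 29 did not pass the test (limma, Benjamini-Hochberg adjusted p under 0.05 over all 18193 genes). That is 56.7% of the members, where the background of all genes called was 39.7%. The lower members made up 41.8%, beside 21.2% of all genes, and the higher members 14.9%, beside 18.5% of all genes. The median difference of the members was -0.16 on the log2 scale and that of all genes was 0.03. With a fold of at least 2 as well, 20 members were lower and 2 were higher, while 4.6% and 3.5% of all genes passed in these directions (8.09% in either). The inflamed values lay wholly below the control values for 25 members and wholly above them for 8, and among all genes this held for 17.1% and 14.6%.

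**Figure D1:**
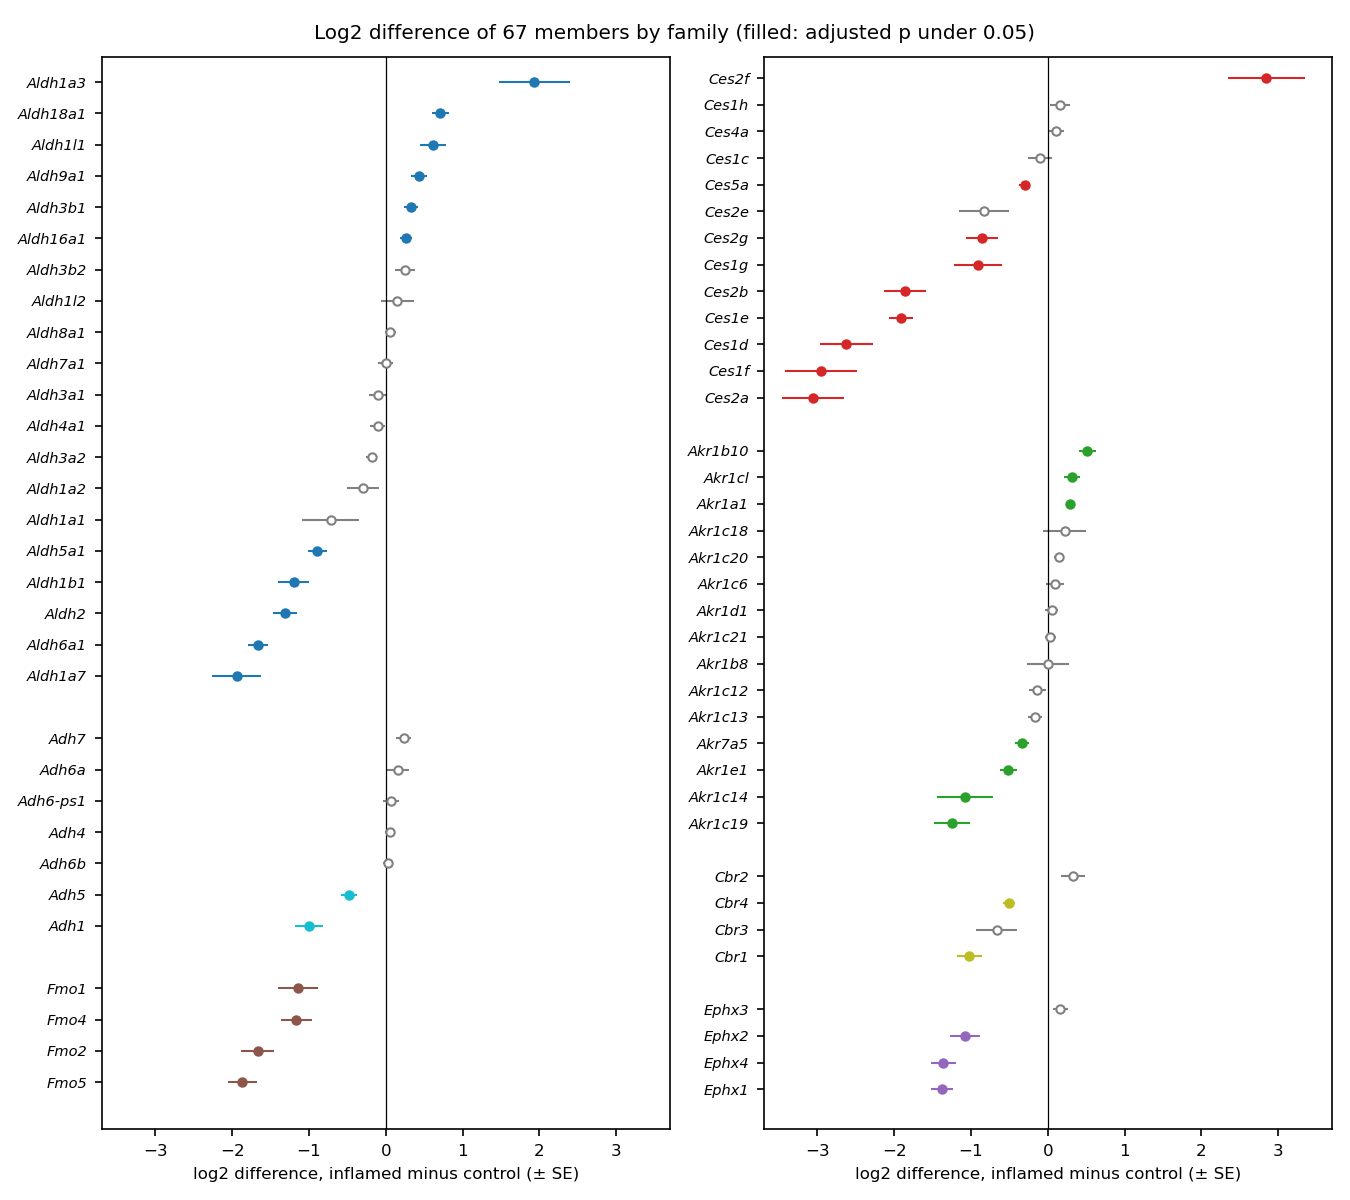
Each point is the log2 difference between the 6 inflamed and the 4 control colons for 1 of the 67 genes, with its limma standard error as a bar, sorted within families; filled points passed the test at an adjusted p under 0.05 and open grey points did not. All 4 Fmo genes and 3 of 4 Ephx genes lie to the left of 0, and the carboxylesterases span the plot from Ces2a at -3.06 to Ces2f at 2.84.

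The counts by family ranged from every member to a few, where 21.2% of all genes were lower and 18.5% higher. All 4 Fmo genes and 3 of the 4 Ephx genes fell. Of the 13 carboxylesterases 8 fell (61.5%) and 1 rose (7.69%), and of the 4 carbonyl reductases 2 fell (50%). Among the aldehyde dehydrogenases the calls went both ways, with 5 lower (25%) and 6 higher (30%) of 20. Among the aldo-keto reductases 4 were lower (26.7%) and 3 higher (20%) of 15, not far from the shares of all genes. Only Adh1 and Adh5 of the 7 alcohol dehydrogenases fell. These family counts are descriptions, and no test between families was made.

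The tissue itself had changed between the groups. The 12 smooth muscle markers were all lower in the inflamed colons, with a median difference of -1.52. Of 18 absorptive colonocyte markers 9 were lower and 3 were higher, whereas of 19 pan-epithelial markers 7 were higher and 2 were lower, and their mean level was 11.42 to 11.49 in the control colons and 11.53 to 11.75 in the inflamed ones. The pan-epithelial mean leans on Cldn4 (1.58) and Krt7 (1.23), which rose most, while Ocln fell (-1.01). Epcam (-0.004) and Cdh1 (0.11) did not pass, and the median difference of the pan-epithelial list was 0.11. Markers of macrophages (10 of 11), neutrophils (8 of 9) and T cells (9 of 9) were higher and none of them was lower. In whole tissue, fewer cells of a type and less RNA per cell cannot be told apart. When each gene was measured against the mean of the pan-epithelial markers, a setting chosen after the data were seen, 35 members were lower and 4 were higher. In that setting the median of all genes was -0.15 and 20.3% of all calls were higher, against 46.7% otherwise.

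The carboxylesterases held the largest falls of all 67 genes. Ces2a, an esterase of the intestine and liver, gave 10.97, 10.85, 11.16 and 11.30 in the control colons, 6.73, 8.47 and 7.35 in the severe colons and 7.66, 9.24 and 8.63 in the moderate colons. All 6 inflamed values lay below the lowest control value, and the difference was -3.06 ± 0.40 (SE), an 8.34-fold fall with an adjusted p of 0.000112. Ces2b gave 7.78, 7.60, 7.39 and 7.90 in the control colons, 5.13, 6.24 and 5.16 in the severe colons and 5.78, 6.72 and 5.82 in the moderate colons. It was 3.62-fold lower, a log2 difference of -1.86 ± 0.28 (adjusted p = 0.000258), again with no overlap. Ces2g fell by less, at -0.86 ± 0.21 (adjusted p = 0.00639), and Ces2e, with a difference of -0.83 ± 0.33, did not pass (adjusted p = 0.0648, 95% interval -1.55 to -0.11).

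Among the carboxylesterases of group 1, Ces1d, which is known as a triacylglycerol hydrolase of liver and fat, gave 8.22, 7.75, 8.23 and 7.87 in the control colons, 5.47, 5.58 and 4.11 in the severe colons and 5.67, 5.05 and 6.48 in the moderate colons. Its fall of 6.16-fold had a log2 difference of -2.62 ± 0.35 and an adjusted p of 0.000113, and severe replicate 3, at 4.11, came close to the dimmest probe sets. Ces1f gave 9.51, 8.29, 9.01 and 9.18 in the control colons, 5.69, 6.34 and 6.53 in the severe colons and 4.12, 7.01 and 6.57 in the moderate colons. The groups did not overlap, moderate replicate 1 was the lowest at 4.12, and the difference was -2.95 ± 0.47 (adjusted p = 0.000424). Its single probe set carries the suffix that marks probes shared with related transcripts, so the signal may include other Ces1 genes. Ces1e gave 6.34, 5.80, 5.93 and 6.00 in the control colons, 3.64, 3.91 and 4.39 in the severe colons and 3.97, 4.43 and 4.30 in the moderate colons. This was a 3.76-fold fall (-1.91 ± 0.16, adjusted p = 7.39e-06) that ended near the level of the dimmest probe sets, where a fold change can be understated. Ces1g fell with overlapping groups (-0.91 ± 0.31, adjusted p = 0.0365), with control values from 5.15 to 6.77 and inflamed values from 4.28 to 5.44. Ces5a fell by 0.30, but its other 2 probe sets differed by 0.03 and -0.02. Ces1c and Ces1h, both near the dimmest probe sets in every group, did not pass.

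The exception was Ces2f, which rose. Its values were 3.79, 3.54, 3.95 and 3.99 in the control colons, 7.68, 7.40 and 6.52 in the severe colons and 5.57, 7.78 and 5.01 in the moderate colons. Every inflamed colon was above every control colon, and the difference of 2.84 ± 0.50 (adjusted p = 0.000831) was the largest rise among the members. The control values were at the level of the dimmest probe sets, which leaves the size of the fold uncertain. A second probe set of Ces2f, also dim, differed by 0.26 and did not pass (adjusted p = 0.0764), and with the mean over both probe sets the difference was 1.55.

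Along the chromosome, the carboxylesterases that passed went the same way in the first cluster but not in the second. Taken in the gene order of the mouse assembly GRCm38.p6, Ces1c, Ces1d, Ces1e, Ces1f, Ces1g, Ces1h and Ces5a follow each other with no other protein-coding gene between them. Their differences ran -0.10, -2.62, -1.91, -2.95, -0.91, 0.16 and -0.30, and all of them passed except the dim Ces1c and Ces1h. In the second cluster Ces2a and Ces2b are adjacent, 1 protein-coding gene separates Ces2b from Ces2e, and Ces2e, Ces2f and Ces2g follow directly. There the differences were -3.06, -1.86, -0.83, 2.84 and -0.86, so the gene that rose lies between 2 genes with lower values in the inflamed colons, of which Ces2g passed.

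**Figure D2:**
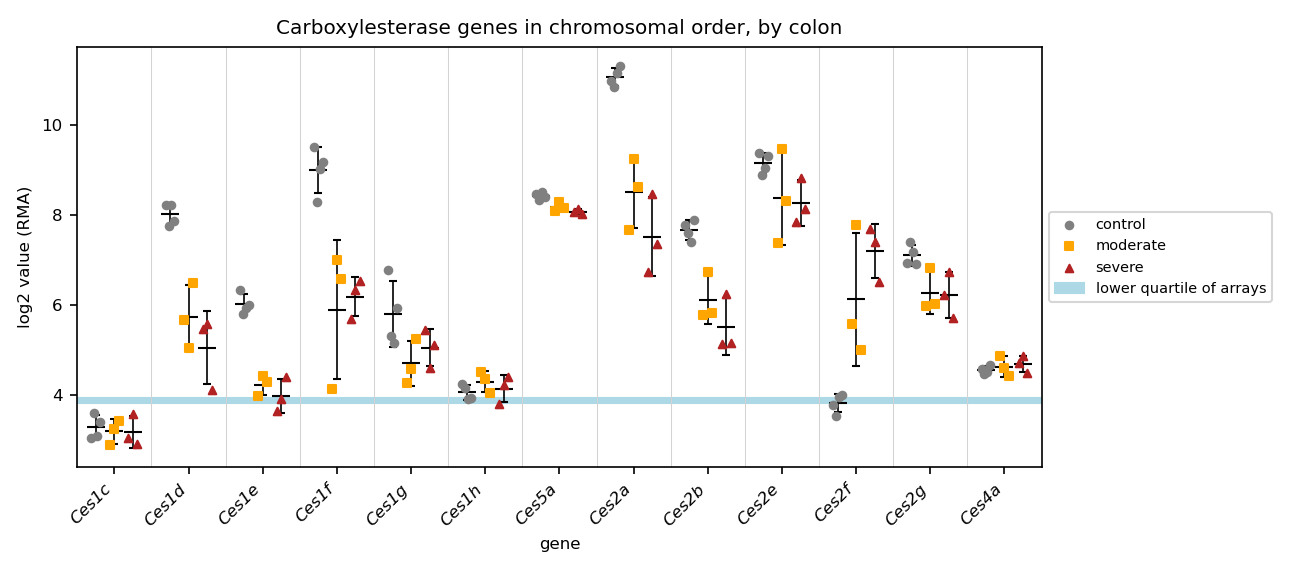
Log2 RMA values of the 13 carboxylesterase genes in each colon, in the order in which the genes lie on the chromosome, with group means and SD as black bars and the range of the arrays' lower quartiles as a blue band. Ces2a falls from 10.85 to 11.30 in the control colons to 6.73 to 9.24 in the inflamed ones, while Ces2f leaves the blue band, from 3.54 to 3.99 up to 5.01 to 7.78.

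The flavin-containing monooxygenases fell as a whole family. Fmo5, the member known from intestine and liver, gave 7.11, 7.47, 7.43 and 7.33 in the control colons, 5.02, 5.08 and 5.47 in the severe colons and 5.58, 6.15 and 5.52 in the moderate colons. Its 3.65-fold fall (-1.87 ± 0.19, adjusted p = 2.01e-05) had no overlap between groups, and its other 2 probe sets differed by -1.12 and -1.14. Fmo2, best known from lung, gave 8.39, 8.86, 8.47 and 8.30 in the control colons, 6.75, 7.08 and 6.21 in the severe colons and 6.65, 6.80 and 7.53 in the moderate colons. It was 3.18-fold lower (-1.67 ± 0.21, adjusted p = 8.45e-05), and of its other 4 probe sets 3 fell, with differences of -1.30, -2.11 and -1.91, while the dimmest differed by -0.16. The chosen probe sets of both genes carry the suffix for probes shared between transcripts.

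Fmo4 gave 5.38, 6.47, 6.09 and 5.91 in the control colons, 4.26, 5.04 and 4.71 in the severe colons and 4.74, 5.08 and 4.97 in the moderate colons, a difference of -1.16 ± 0.20 (adjusted p = 0.00079) with no overlap. Fmo1 gave 6.47, 7.69, 7.18 and 6.79 in the control colons, 6.07, 5.89 and 5.23 in the severe colons and 6.03, 5.64 and 6.49 in the moderate colons. Its difference was -1.14 ± 0.26 (adjusted p = 0.0038), but moderate replicate 3 at 6.49 was just above control replicate 1 at 6.47. Fmo4, Fmo1 and Fmo2 are neighbours on chromosome 1 with no protein-coding gene between them, and all of them fell. Beside the Fmo genes, 6 of 12 fibroblast markers were lower (50%) and 1 was higher (8.33%), where 21.2% and 18.5% of all genes were. Lower too were 6 of 9 endothelial markers (66.7%) and all the smooth muscle markers. Dpt, among the fibroblast markers that fell most, went from 10.98 ± 0.17 to 9.19 ± 0.41 (SD), and Myh11 of smooth muscle from 11.23 ± 0.21 to 8.97 ± 0.56. The fibroblast markers Pdgfra (0.11), Pdgfrb (0.17), Col1a1 (0.41), Col1a2 (-0.34) and Vim (-0.09) did not pass, and Thy1 rose (0.81). The part of these cell types in the fall of the Fmo genes was not tested.

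The epoxide hydrolases followed. Ephx1, the microsomal enzyme that opens epoxides of drugs and pollutants, gave 7.55, 7.60, 7.71 and 7.44 in the control colons, 6.11, 5.88 and 6.15 in the severe colons and 6.71, 5.96 and 6.37 in the moderate colons. The difference was -1.38 ± 0.14 (2.60-fold lower, adjusted p = 2.35e-05) with no overlap between groups. Ephx2, the soluble enzyme that hydrolyses epoxides of fatty acids, gave 8.19, 8.14, 8.35 and 8.21 in the control colons, 6.62, 7.64 and 7.09 in the severe colons and 6.62, 7.32 and 7.56 in the moderate colons. Severe replicate 1 and moderate replicate 1 were the lowest, both at 6.62, and the fall was 2.11-fold (-1.08 ± 0.20, adjusted p = 0.00113). Ephx4 gave 6.84, 6.74, 7.14 and 6.93 in the control colons, 5.01, 5.56 and 5.46 in the severe colons and 5.67, 5.57 and 6.03 in the moderate colons, a difference of -1.36 ± 0.16 (adjusted p = 4.99e-05) without overlap. Ephx3 was near the dimmest probe sets throughout and did not pass (0.16 ± 0.09, adjusted p = 0.196).

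Of the carbonyl reductases, Cbr1, which reduces quinones and prostaglandins, gave 11.34, 11.71, 11.92 and 11.65 in the control colons, 10.21, 10.55 and 10.69 in the severe colons and 10.43, 10.94 and 10.99 in the moderate colons. It fell 2.03-fold (-1.02 ± 0.16, adjusted p = 0.000353) with no overlap. Its neighbour Cbr3 gave 9.43, 10.10, 10.37 and 10.06 in the control colons, 9.51, 8.98 and 9.52 in the severe colons and 8.54, 9.31 and 10.07 in the moderate colons. The groups overlapped and the difference of -0.67 ± 0.26 did not pass (adjusted p = 0.0634, 95% interval -1.24 to -0.09). It passed without control replicate 1 (-0.86, adjusted p = 0.0299) or without moderate replicate 3 (-0.82, adjusted p = 0.0161). The mitochondrial enzyme Cbr4 fell by 0.51, and Cbr2 differed by 0.33 ± 0.16 (adjusted p = 0.115).

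**Figure D3:**
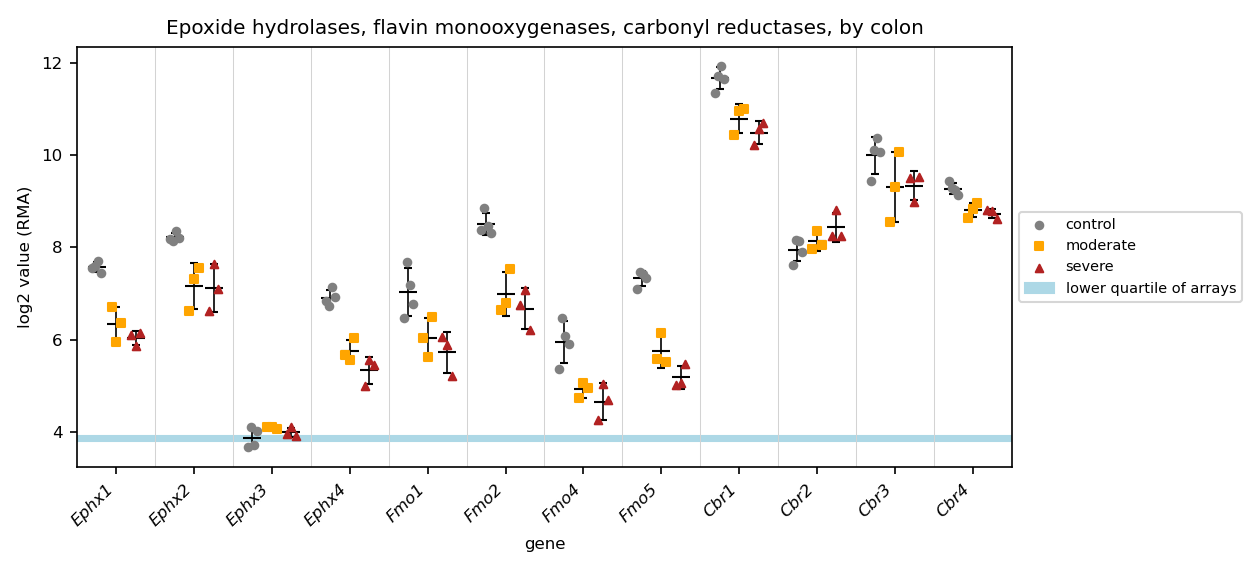
Log2 RMA values of the epoxide hydrolases, flavin-containing monooxygenases and carbonyl reductases in each colon (circles, 4 control; squares, 3 moderate; triangles, 3 severe), with group means and SD in black and the arrays' lower quartiles as a blue band. Ephx1, Ephx4, Fmo5 and Cbr1 show no overlap between control and inflamed colons, Ephx3 stays near the blue band, and the Cbr3 values overlap.

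Of the 7 alcohol dehydrogenases Adh1 and Adh5 were lower (28.6%, beside 21.2% of all genes). Adh1, the class I enzyme that oxidises ethanol and retinol, gave 13.06, 13.40, 13.34 and 13.29 in the control colons, 12.29, 12.42 and 11.48 in the severe colons and 12.50, 12.54 and 12.39 in the moderate colons. All inflamed colons were below all control colons, severe replicate 3 stood apart at 11.48, and the difference was -1.001 ± 0.183 (SE, 2.00-fold lower, adjusted p = 0.00104). Adh5, which oxidises formaldehyde bound to glutathione, gave 11.09, 10.85, 10.86 and 10.85 in the control colons, 10.63, 10.26 and 10.41 in the severe colons and 10.48, 10.20 and 10.62 in the moderate colons. Its fall was smaller (-0.48 ± 0.10, adjusted p = 0.00246), its other, dim probe set differed by 0.21 and did not pass, and the mean over both did not pass either (-0.13, adjusted p = 0.099). Adh7, another retinol-oxidising enzyme, differed by 0.23 ± 0.10 (adjusted p = 0.0866). Adh7, Adh1, Adh6a, Adh6b, Adh4 and Adh5 lie in a row on chromosome 3, and within that row the genes that fell were Adh1 and Adh5.

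The retinaldehyde dehydrogenases, which catalyse the last step to retinoic acid, did not move together. Aldh1a1 gave 10.71, 9.55, 10.02 and 10.92 in the control colons, 9.49, 9.23 and 9.82 in the severe colons and 8.46, 9.90 and 10.60 in the moderate colons. The values overlapped and the difference of -0.72 ± 0.37 did not pass (adjusted p = 0.153, 95% interval -1.54 to 0.10), though without moderate replicate 3 it was -0.92 and passed (adjusted p = 0.0492). Aldh1a2 gave 5.10, 5.12, 5.13 and 5.13 in the control colons, 5.65, 4.55 and 4.60 in the severe colons and 4.95, 4.34 and 4.86 in the moderate colons. The control values lay between 5.10 and 5.13, severe replicate 1 was above them and the other inflamed values were below, and the difference was -0.30 ± 0.20 (adjusted p = 0.278). Without severe replicate 1 it was -0.46 and passed (adjusted p = 0.00873).

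Aldh1a3, the remaining enzyme of this step, rose. It gave 5.30, 5.78, 4.94 and 5.48 in the control colons, 8.96, 7.60 and 7.20 in the severe colons and 6.08, 7.71 and 6.31 in the moderate colons. Every inflamed colon was above every control colon, with severe replicate 1 the highest at 8.96, and the difference was 1.94 ± 0.46 (3.83-fold, adjusted p = 0.00568). Its other 2 probe sets also rose, by 0.70 and 0.57, so the mean over the 3 probe sets differed by 1.07. Aldh1a7, a close relative of Aldh1a1 that lies next to it on chromosome 19, gave 9.13, 8.64, 9.18 and 8.95 in the control colons, 6.58, 6.85 and 6.92 in the severe colons and 6.11, 7.83 and 7.91 in the moderate colons. It went the other way, 3.84-fold lower (-1.94 ± 0.32, adjusted p = 0.000475), without overlap.

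Other genes of the retinoid pathway gave a mixed picture as well. Of 30 measured genes of vitamin A uptake, storage, oxidation, breakdown and reception outside the 67, 9 were lower and 4 were higher, with a median of -0.03. The lower ones made up 30%, beside 21.2% of all genes, and the higher ones 13.3%, beside 18.5%. The share called in either direction, 43.3%, was near the 39.7% of all genes. The largest falls were in Lrat (-1.62 ± 0.33), which esterifies retinol for storage, in Bco2 (-1.03 ± 0.20), which cleaves carotenoids, and in Rbp2 (-0.98 ± 0.18), the retinol-binding protein of intestinal absorptive cells. Lrat ranged widely in the control colons, from 3.97 to 6.26, and lay among the dimmest probe sets in the inflamed ones, from 3.38 to 3.78, which leaves its fold uncertain. The largest rises were in Rdh10 (1.26 ± 0.21, adjusted p = 0.000488), which oxidises retinol to retinaldehyde, in Rarres1 (0.69 ± 0.21) and in the receptor Rara (0.40 ± 0.09).

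**Figure D4:**
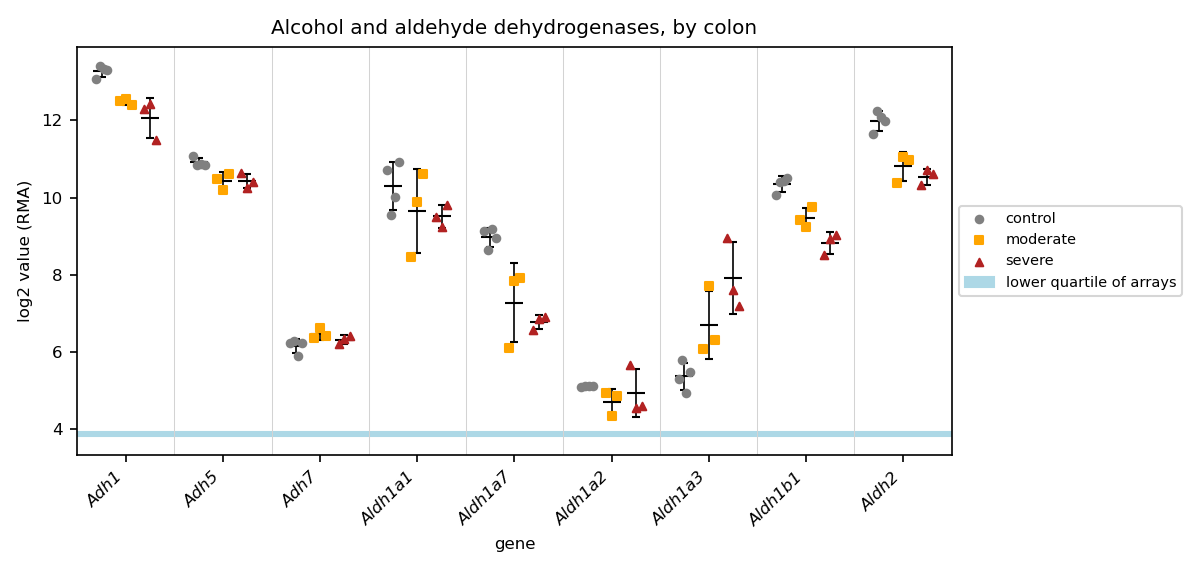
Log2 RMA values of alcohol dehydrogenases and of aldehyde dehydrogenases of retinaldehyde and acetaldehyde in each colon (circles, 4 control; squares, 3 moderate; triangles, 3 severe), with group means and SD in black. Aldh1a3 is the gene with higher values in every inflamed colon, Adh1, Adh5, Aldh1a7, Aldh1b1 and Aldh2 have lower values in every inflamed colon, and the Aldh1a1 values overlap.

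Of 7 aldehyde dehydrogenases listed as mitochondrial 4 were lower and 1, Aldh18a1, was higher (57.1% and 14.3%, beside 21.2% and 18.5% of all genes). The shares depend on this list, which was drawn up by hand and leaves out Aldh7a1 (-0.0004 ± 0.09, not passed). Aldh2, the main enzyme for acetaldehyde, gave 11.65, 12.24, 12.08 and 11.97 in the control colons, 10.32, 10.71 and 10.61 in the severe colons and 10.39, 11.05 and 10.99 in the moderate colons. Its fall was 2.48-fold (-1.31 ± 0.16, adjusted p = 6.84e-05) with no overlap. Aldh1b1, its relative in the same compartment, gave 10.06, 10.39, 10.43 and 10.52 in the control colons, 8.51, 8.94 and 9.04 in the severe colons and 9.42, 9.25 and 9.75 in the moderate colons, a difference of -1.20 ± 0.20 (adjusted p = 0.000562). Aldh6a1, an enzyme of valine breakdown, gave 9.45, 9.27, 9.18 and 9.06 in the control colons, 7.45, 7.67 and 7.23 in the severe colons and 7.43, 7.74 and 7.92 in the moderate colons. It had the smallest adjusted p of the 67 genes (4.74e-06) at -1.67 ± 0.13 (3.18-fold lower). Aldh5a1, which completes the breakdown of GABA, fell by 0.89, whereas Aldh4a1 (-0.11 ± 0.10) and Aldh1l2 (0.15 ± 0.21) did not pass.

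Beside Aldh1a3, another 5 aldehyde dehydrogenases rose. Aldh18a1, which makes the precursor of proline, rose by 0.71 ± 0.11 (adjusted p = 0.000384), and all 5 of its probe sets rose, by 0.50 to 0.71, the 0.50 being that of the probe set without the suffix for probes that may bind other transcripts. Aldh1l1, a folate enzyme, rose by 0.61 ± 0.17, but its second probe set differed by 0.09 and did not pass (adjusted p = 0.578). Aldh9a1, an enzyme of carnitine synthesis, rose by 0.43 ± 0.11, Aldh3b1 by 0.33 ± 0.09 and Aldh16a1 by 0.27 ± 0.08. Aldh3a2, which oxidises long-chain fatty aldehydes, gave 8.95, 8.73, 8.90 and 8.999 in the control colons, 8.63, 8.74 and 8.84 in the severe colons and 8.63, 8.78 and 8.66 in the moderate colons. Its difference of -0.18 ± 0.07 did not pass (adjusted p = 0.0683), and without control replicate 2 it was -0.24 and passed (adjusted p = 0.0284).

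The starts of Aldh18a1 and Aldh9a1 are shown because they are the well-measured members that rose and that carry, in the 250 bases before the start, a short motif of a sensor of foreign chemicals. The sequences are from RefSeq, build GRCm38.p6, written 5′ to 3′ on the gene's strand with the motif in capitals. The Aldh18a1 stretch is chr19:40588464-40588495 (minus strand) and holds TNGCGTG, the core bound by the Ahr receptor. The Aldh9a1 stretches are chr1:167349879-167349937 (plus strand), with TGACNNNGC, the core of the antioxidant response element to which Nrf2 binds, and chr1:167349926-167349982 (plus strand), which overlaps the first, with the Ahr core on the opposite strand.
Aldh18a1, Ahr core: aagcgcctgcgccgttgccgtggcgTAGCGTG
Aldh9a1, antioxidant core: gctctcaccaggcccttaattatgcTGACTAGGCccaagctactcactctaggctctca
Aldh9a1, Ahr core: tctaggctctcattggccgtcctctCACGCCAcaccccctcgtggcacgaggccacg

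Such motifs were not common before the members' starts. RefSeq promoters were matched for 53 of the 67 genes, among them 9 that rose and 22 that fell. On either strand, the antioxidant core was found in 4 of the 53 (7.55%) and in 11.5% of all 27025 genes with a promoter, the Ahr core in 3 (5.66%) and in 4.76%, and CAAAGTCCA, a site of the liver and gut factor HNF4, in 0 and in 0.451%. The members with any of them were Akr1cl, Aldh9a1 and Aldh18a1, which rose, and Adh6a, Aldh1a2 and Aldh3a2, which did not pass. A match is only a run of letters in this window and says nothing of binding.

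The aldo-keto reductases held both rises and falls. Akr1a1, the broad aldehyde reductase, gave 13.06, 13.06, 13.07 and 13.10 in the control colons, 13.38, 13.36 and 13.43 in the severe colons and 13.36, 13.30 and 13.34 in the moderate colons. The rise of 0.29 ± 0.05 was small but larger than the spread of either group (adjusted p = 0.00123), although against the pan-epithelial mean it was 0.10 and did not pass. Akr1b8, a reductase like aldose reductase, gave 10.13, 10.06, 10.61 and 10.23 in the control colons, 10.52, 10.07 and 11.10 in the severe colons and 9.34, 9.97 and 10.58 in the moderate colons. The inflamed values lay on both sides of the control values and the difference was 0.01 ± 0.28 (95% interval -0.60 to 0.61). Its neighbour Akr1b10 rose by 0.51 ± 0.11 (adjusted p = 0.00272), and its other 2 probe sets differed by 0.89, which passed, and 0.40, which did not. Akr1cl, a dim gene, rose by 0.32 ± 0.11, and its second probe set, dimmer still, differed by 0.01 and did not pass. Akr7a5, which reduces aldehydes derived from aflatoxin, gave 10.04, 9.98, 10.21 and 10.05 in the control colons, 9.63, 9.76 and 9.96 in the severe colons and 9.60, 9.89 and 9.58 in the moderate colons, a fall of 1.26-fold (-0.34 ± 0.09, adjusted p = 0.0112). Its second probe set fell by 0.50 and the third, a dim one, differed by -0.05 and did not pass.

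The Akr1c genes, which reduce steroids and prostaglandins, sit in a row on chromosome 13, and 2 of the 8 fell (25%, beside 21.2% of all genes). Akr1c19 gave 11.15, 10.81, 11.18 and 10.96 in the control colons, 9.53, 9.50 and 10.23 in the severe colons and 9.09, 9.82 and 10.50 in the moderate colons. It was 2.38-fold lower (-1.25 ± 0.23, adjusted p = 0.0012) with no overlap. Akr1c14, an oxidoreductase of steroids, gave 12.07, 12.12, 11.42 and 11.82 in the control colons, 9.38, 11.10 and 10.33 in the severe colons and 10.85, 11.38 and 11.63 in the moderate colons. Its groups overlapped, severe replicate 1 was the lowest at 9.38, and the call of -1.08 ± 0.37 (adjusted p = 0.0347) was lost when control replicate 1, 2 or 4, severe replicate 3 or moderate replicate 1 was left out (adjusted p from 0.0501 to 0.0896). Akr1c13 gave 11.83, 11.79, 11.69 and 11.84 in the control colons, 11.35, 11.69 and 11.72 in the severe colons and 11.49, 11.72 and 11.75 in the moderate colons, and its difference of -0.16 ± 0.09 did not pass (adjusted p = 0.167). In the row Akr1c18 (0.22) and Akr1c13 (-0.16) lie between Akr1c14 and Akr1c19. Akr1e1, at the end of the row, fell by 0.51, and its second, dimmer probe set differed by -0.06 and did not pass.

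Many enzymes that share these tasks but carry other symbols were lower too. Of 34 measured carbonyl, alcohol and ester enzymes outside the 67, 19 were lower and 3 were higher, with a median of -0.51. The lower ones made up 55.9%, beside 21.2% of all genes, and the higher ones 8.82%, beside 18.5%. Aadac, a microsomal esterase of liver and gut, fell from 10.28 ± 0.31 to 5.82 ± 1.16 (SD), a difference of -4.46 ± 0.51 (adjusted p = 4.08e-05). Bche, which cleaves choline esters, fell by 2.59, and Hpgd, which oxidises prostaglandins, fell by 1.92. The 3 that rose were Xdh (1.76 ± 0.18), which oxidises purines and aldehydes, Glo1 (0.62 ± 0.11), which clears methylglyoxal, and Lipe (0.33 ± 0.10).

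A list of Nrf2, its inhibitor Keap1 and known target genes showed the opposite balance. Of 18 measured genes 11 were higher (61.1%, beside 18.5% of all genes) and 1 was lower (5.56%, beside 21.2%), with a median of 0.50. Keap1, which is not counted as a target, was among the 11 (0.43 ± 0.07, adjusted p = 0.000686). The largest rises were in the cystine carrier Slc7a11 (2.03 ± 0.27), the epithelial glutathione peroxidase Gpx2 (1.23 ± 0.12) and Pgd of the pentose phosphate route (0.99 ± 0.09). The gene that fell was Nfe2l2, which encodes Nrf2 itself (-0.30 ± 0.07, adjusted p = 0.00353), and Nqo1 (-0.01 ± 0.18), Gclc (-0.10 ± 0.17) and Gclm (-0.09 ± 0.13), which are textbook targets, did not pass.

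The inflamed colons were not alike in how far the members had moved. Averaged over the 28 members that fell, the distance from the control mean was -1.63, -1.28 and -1.53 in the severe colons and -1.51, -1.09 and -0.98 in the moderate ones. Severe replicate 1 held the lowest inflamed value of 11 of these genes and severe replicate 3 of 9, while moderate replicate 3 held the highest of 12 and moderate replicate 2 of 10. Over the 10 members that rose, the same average was 1.09, 0.92 and 0.85 in the severe colons and 0.59, 0.91 and 0.58 in the moderate ones. Moderate replicate 1 lay within the range of the severe colons for the members that fell, and moderate replicate 2 for those that rose. All 18 absorptive colonocyte markers, called or not, averaged -2.005, -1.18 and -1.53 in the severe colons and -1.33, -0.94 and -0.65 in the moderate ones. A few markers weighed heavily in this average, with Cyp2c55 at -7.62, Sult1a1 at -4.51 and Slc37a2 at -4.29 against control. The median difference of the list was -0.70, and 3 of its genes were higher. The part of these markers in the fall of the members was not tested.

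**Figure D5:**
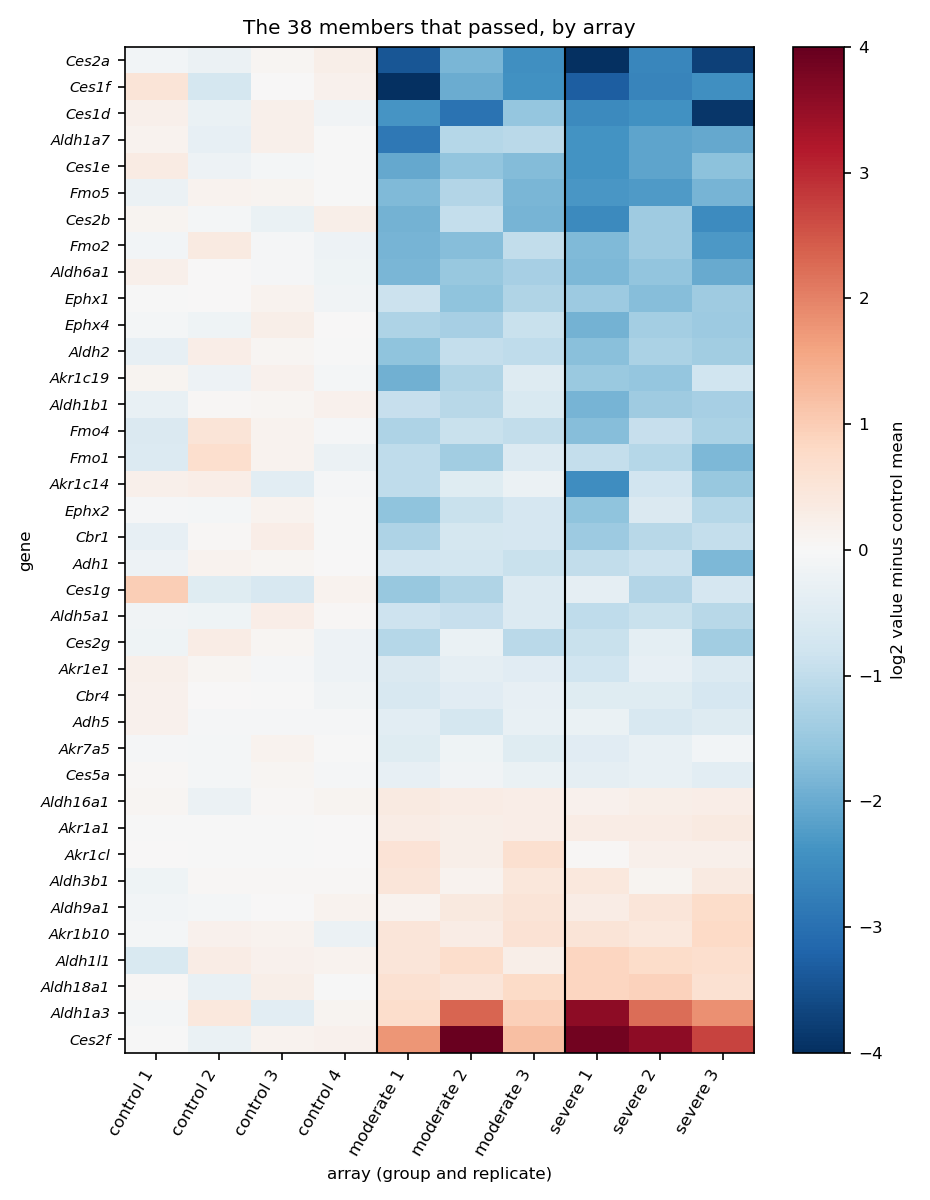
Log2 value minus the control mean for the 38 members that passed the test between inflamed and control colons, 1 row per gene and 1 column per array, blue for lower and red for higher. The darkest blue cells are those of Ces2a, Ces1f and Ces1d, and the rows of Ces2f and Aldh1a3 at the bottom are red in all 6 inflamed colons.

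Each severity class was also set against the same 4 control colons. Against control, 26 members were lower and 8 higher in the severe colons, where 18.9% and 16.1% of all genes were called (35.0% in either direction). In the moderate colons 27 were lower and 9 higher, beside 16.7% and 13.2% of all genes (29.9% in either direction). The count of 9 was 5 without control replicate 1 and 5 without moderate replicate 3. Ces2a differed from control by -3.56 ± 0.41 in the severe and -2.56 ± 0.41 in the moderate colons, Fmo5 by -2.15 ± 0.17 and -1.59 ± 0.17, and Aldh1a3 by 2.54 ± 0.45 and 1.33 ± 0.45. Akr1c14, Aldh1l1, Aldh9a1 and Cbr2 passed in the severe colons alone, Cbr2 with a rise of 0.48, and Akr1cl, Akr7a5, Aldh16a1, Aldh3b1, Aldh3b2 and Ces1g in the moderate colons alone, which does not show that the classes differed in them.

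Set directly against each other, the severe and moderate colons gave no member past the threshold, nor any of the 18193 genes (0.0% called by limma, and 0 by the unpaired t-test with the same adjustment). At an unadjusted p under 0.05 there were 8 members and 922 genes (5.07%), and the smallest adjusted p of a member was 0.799. That member was Aldh1b1, with a difference, severe minus moderate, of -0.65 ± 0.17 and a 95% interval of -1.03 to -0.26. Aldh1a3 had the largest difference upward (1.22 ± 0.48, interval 0.15 to 2.28) and Akr1c14 the largest downward (-1.02 ± 0.37, interval -1.83 to -0.20). Over all genes, 14 were higher and 6 lower without moderate replicate 2, 1 higher and 4 lower without severe replicate 2, and 1 lower without moderate replicate 1, but no member was called when any array was left out. With 3 colons in each class the intervals were wide, so differences of about 2-fold are not shown to be absent. Of the 38 members called against control, 32 (84.2%) had the larger difference in the severe colons, and of all called genes 5223 of 7222 (72.3%) did.

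Signs of other tissues were looked for because liver and fat are rich in these enzymes. Of 9 liver markers 3 were lower (33.3%, beside 21.2% of all genes). These were Alb, from 5.40 ± 0.32 to 4.70 ± 0.21 (SD, control to inflamed), Ttr, from 10.64 ± 0.56 to 8.62 ± 0.29, and Cps1, from 7.17 ± 0.51 to 5.18 ± 0.79. The other 6 did not pass, among them Apoa1 (4.95 to 4.90), Ahsg (4.42 to 4.66) and Tat (7.83 to 8.51). The adipocyte hormone gene Adipoq had means of 4.21 ± 1.28 to 3.51 ± 0.27 (SD, control to inflamed) and did not pass (adjusted p = 0.237), and 3 of 9 adipocyte markers were lower. Of the mesothelial markers 1 of 9 was lower, 3 of 12 goblet cell markers were lower, Klk1 the most at -2.43 ± 0.28, and 5 of 8 markers of enteric glia and neurons were lower. In the comparison of all inflamed colons none of these lists had a higher member, and against control the severe colons alone had 2 of 9 mesothelial and 2 of 9 liver markers higher. Their part in the results for the 67 genes was not tested.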

How the data were processed

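RNA from 10 distal colons was measured on Affymetrix mouse GeneChip arrays. Per the labels, the authors made the deposited table with Affymetrix Expression Console and RMA, and it holds 1 log2 value per probe set and array. Depth does not apply to arrays, and precision is limited by their number. Of 45101 probe sets, 34945 were annotated to 1 gene. Control probe sets and probe sets of several genes (932) were left out. The probe set with the highest mean represented each of 18193 genes, and 9010 genes had several probe sets to choose from. Such a choice can miss or favour a transcript form, so for members that passed, the other probe sets are given where any of them did not pass.

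Inflamed colons were compared with control colons in limma 3.58.1 (R 4.3.3), and the severity classes in a model of 3 groups. All p-values were two-sided and were adjusted by the Benjamini-Hochberg method over the 18193 genes (threshold 0.05). Values in every array are given for members past the threshold with an absolute log2 difference of at least 1 and for a list of genes of known main roles. Other members are given by family. From related lists the 3 largest changes in each direction are named. The rule for the members reads symbols only, but it and the lists were settled on with earlier results of these data known. Gene order and promoters came from RefSeq tables of GRCm38.p6. Alternatives covered the choice of probe set, dim genes, scaling, the way variance and arrays were weighted, the t-test named in the methods, a replicate block and leaving out each array. Scripts were tested on simulated data. Figures were drawn with matplotlib 3.10.9.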

Additional observations from a re-analysis of the deposited data

Results flagged for a closer look

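A single array far from the rest of its group was looked for in 62 groups of values (31 named genes, control and inflamed), and by chance about 1 in 20 groups would show one. It was found in 2. Adh1 in severe replicate 3 was 11.48, with the nearest inflamed value at 12.29, a gap of 0.763 of the range. Adh5 in control replicate 1 was 11.09, with the nearest control value at 10.86, a gap of 0.949 of the range. Both genes passed between inflamed and control colons with that array left out.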

How the results depend on the processing

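Over 31 named results and their alternatives, 623 of 650 values kept their direction and their side of the threshold, and 22 results kept both under every alternative that was run. Relative to the pan-epithelial mean, a setting chosen after the data were seen, 4 members were higher in the inflamed colons in place of 10. With the methods' t-test after Benjamini-Hochberg adjustment, 3 members were higher and 17 lower in the moderate colons, in place of 9 and 27. Leaving out 1 array at a time gave 8 to 11 higher and 26 to 30 lower members for inflamed against control, 7 to 9 and 25 to 28 for severe against control, 5 to 10 and 21 to 28 for moderate against control, and 0 throughout for severe against moderate. Correlations of the arrays' deviations ran from -0.08 to 0.29 for same-numbered arrays and from -0.31 to 0.17 for differently numbered ones. The highest were those of severe with moderate replicate 1 (0.29) and replicate 2 (0.25), while replicate 3 gave -0.03. A replicate block, which in effect leaves out control replicate 4, gave 9 higher and 26 lower members for inflamed, 8 and 26 for severe, 7 and 23 for moderate against control and 0 for severe against moderate.

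Akr1b8, with a main difference of 0.01, changed sign to -0.18 relative to the pan-epithelial mean, to -0.0040 under the replicate block, to -0.04, -0.06 and -0.0040 without control replicate 1, 2 or 4, to -0.05 and -0.16 without severe replicate 1 or 3, and to -0.06 without moderate replicate 3 (it was 0.19 without moderate replicate 1, its highest), and it never passed. Akr1c14 lost its call with a trended and robust variance (adjusted p = 0.0564), with the methods' t-test (0.0869 after adjustment) and under the replicate block (0.0685). Cbr3 gained one with array weights (-0.71) and relative to the pan-epithelial mean (-0.85), as did Aldh3a2 (-0.37) and Akr1c13 (-0.35) relative to that mean. The cause of these changes was not tested. Ces1f has no probe set without the suffix for shared probes, so that alternative gave no value for it.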

Other observations

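A few probe sets named more than 1 gene of these families and were kept out of the tests. The probe set of Akr1c12 and Akr1c13 stood at 12.30 ± 0.05 (SD, n = 4) in the control colons and 12.00 ± 0.23 (SD, n = 6) in the inflamed ones. That of Ces3a and Ces3b stood at 3.68 ± 0.16 and 3.63 ± 0.21, among the dimmest probe sets. The 2 probe sets of Aldh3b2 and Aldh3b3 stood at 4.71 ± 0.09 and 4.83 ± 0.16, and at 4.41 ± 0.05 and 4.50 ± 0.17.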
